A study of Mus musculus with 11 samples.

Results

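Acid secretion by the stomach is controlled through receptors for histamine, acetylcholine, gastrin and somatostatin, and their transcripts were followed in mouse stomach after tamoxifen and rapamycin. The receptors are encoded by Hrh2, Chrm3, Cckbr and Sstr2, 4 genes chosen by name for that role out of 22180 genes measured, and each had 1 probe set. RNA of whole stomach came from adult C57Bl/6 mice in 4 groups, all given daily intraperitoneal injections. They received rapamycin plus tamoxifen (n = 2), tamoxifen alone (n = 2), rapamycin alone (n = 3) or sunflower oil as vehicle (n = 2). Tamoxifen injections ran over 3 days with 5 mg per 20 g of body weight. Rapamycin injections ran over 10 days with 0.6 mg per 20 g, and the combined group had both. A further array held parietal cells isolated from adult C57Bl/6 stomach, with no treatment named in the labels, and another held the stomach cells left without them (n = 1 each). The labels name no transgene or altered allele, and they do not say how the cells were isolated. Arrays of a group are labelled biological replicates, and whether each held 1 mouse is not stated.

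Parietal cells of the gastric gland secrete hydrochloric acid through a proton pump that moves to the cell surface when they are stimulated. Histamine from enterochromaffin-like cells acts on the H2 receptor (Hrh2), which raises cAMP through Gs, and acetylcholine from enteric nerves acts on the M3 receptor (Chrm3), which raises calcium through Gq. Gastrin acts on the cholecystokinin B receptor (Cckbr), which is known on enterochromaffin-like cells and on parietal cells, and somatostatin acts on Sstr2, a Gi-coupled receptor that restrains histamine release and acid secretion. Tamoxifen binds oestrogen receptors and is known to be toxic to parietal cells at high dose, and rapamycin inhibits the growth kinase mTORC1.

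Hrh2 and Chrm3 lie on chromosome 13 (chr13:54191970-54236182, plus strand, and chr13:9875486-10361062, minus strand). Cckbr lies at chr7:105425676-105436339 and Sstr2 at chr11:113619327-113626028, both on the plus strand. These positions are those of the RefSeq annotation on GRCm38.p6. The sources used here name no build for the array. Upstream sequence is shown for Sstr2 and Cckbr, the pair of receptors whose levels were most alike over the 9 whole-stomach arrays. It covers 250 bases for Sstr2 (chr11:113619077-113619326) and 195 bases for Cckbr (chr7:105425481-105425675), up to the annotated start of each gene, from RefSeq. Capitals mark matches to the motifs searched.
Sstr2: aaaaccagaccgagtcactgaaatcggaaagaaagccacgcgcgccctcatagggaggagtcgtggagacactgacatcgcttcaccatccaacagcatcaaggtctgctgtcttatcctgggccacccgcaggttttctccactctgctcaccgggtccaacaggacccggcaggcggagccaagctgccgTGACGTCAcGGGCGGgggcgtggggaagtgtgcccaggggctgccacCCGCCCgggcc
Cckbr: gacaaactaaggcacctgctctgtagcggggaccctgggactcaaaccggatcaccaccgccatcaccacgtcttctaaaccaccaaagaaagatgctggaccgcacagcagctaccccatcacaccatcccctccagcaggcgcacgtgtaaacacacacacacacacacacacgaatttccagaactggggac
Searched on both strands, the cAMP response element TGACGTCA occurred in 1.77% of 27025 genes, and the GC box GGGCGG in 35.4%. A gene was counted where any of its upstream windows of 250 bases held the motif. The Sstr2 window held 1 cAMP response element with its first base at -58 from the start, and 2 GC boxes with first bases at -49 and -11, the second of them on the minus strand. The Cckbr window held neither, and none of these matches overlapped another. Hrh2 held 1 GC box and Chrm3 none, and neither held the cAMP response element. Their windows reach into the annotated genes and are not printed. The searched window of Cckbr also runs past the annotated start, where its printed sequence stops. The oestrogen response element GGTCANNNTGACC, present in 0.0666% of the genes, was in none of the 4. A match describes letters and does not show a binding site.

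All values below are log2 expression after the authors' normalization, so a difference of 1 is a 2-fold difference. The array medians lay between 4.95 and 5.09 in whole stomach, and at 3.67 in the parietal cells and 3.68 in the remaining cells, so these last arrays are compared only with each other. A fixed list of forestomach squamous genes divided arrays within the tamoxifen group and within the rapamycin group. It was high in both combined arrays and low in both vehicle arrays. The mean of its 10 measured genes was 8.815 and 8.998 in the arrays with rapamycin plus tamoxifen, 9.43 and 4.97 with tamoxifen, 9.48, 8.29 and 5.43 with rapamycin, and 5.25 and 4.77 with vehicle. Genes were tested with limma, with Benjamini-Hochberg adjustment over all 22180 genes, and a gene is said to have changed, risen or fallen where the adjusted p was under 0.05. Errors after ± are SDs over arrays for levels and standard errors from limma for differences.

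With tamoxifen, on average over the presence and absence of rapamycin, the transcripts of the H2 receptor, the M3 receptor and the somatostatin receptor Sstr2 fell. Hrh2 was 2.52-fold lower, Sstr2 2.22-fold lower and Chrm3 1.36-fold lower. Cckbr, the gastrin receptor, was 1.64-fold lower on average and did not pass the test. So 3 of the 4 receptors fell, against 2.61% of all genes, and 0 rose, against 3.24% of all genes. The receptors were chosen with earlier results of these data known, so these shares give scale and are no test.

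Hrh2 read 6.27 and 6.44 in the arrays with rapamycin plus tamoxifen and 5.95 and 6.68 with tamoxifen, against 7.62, 8.28 and 7.71 with rapamycin and 7.54 and 7.40 with vehicle. All 4 arrays with tamoxifen lay below all 5 without it, and the lowest and the highest of those 4 were both from the group given tamoxifen alone. The averaged difference was -1.33 ± 0.19 (95% interval -1.76 to -0.91; limma adjusted p = 0.0038). With each array left out in turn Hrh2 was called in 9 of 9 fits.

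Sstr2 read 7.15 and 7.55 in the arrays with rapamycin plus tamoxifen and 6.69 and 6.50 with tamoxifen, against 8.13, 8.56 and 8.57 with rapamycin and 8.05 and 7.60 with vehicle. Again no array with tamoxifen reached any array without it, although the second combined array (7.55) came close to the second vehicle array (7.60). The averaged difference was -1.15 ± 0.15 (95% interval -1.497 to -0.80; limma adjusted p = 0.00306), and it was called in 9 of 9 fits that left out 1 array.

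Chrm3 had the smallest averaged difference of the 4. It read 6.78 and 6.78 in the arrays with rapamycin plus tamoxifen and 6.70 and 6.77 with tamoxifen, against 7.13, 7.28 and 7.01 with rapamycin and 7.17 and 7.37 with vehicle. The groups with and without tamoxifen did not overlap, and the averaged difference was -0.45 ± 0.098 (95% interval -0.67 to -0.22; limma adjusted p = 0.0312). The call was lost with the mean of the squamous genes as a covariate (difference -0.46, adjusted p = 0.0819), which leaves 2 of the 4 receptors called. Chrm3 was called in 2 of 9 fits that left out 1 array: without the first vehicle array the adjusted p was 0.0408, without the third rapamycin array 0.0466, and in the other fits it lay between 0.0575 and 0.128.

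Cckbr read 6.516 and 6.997 in the arrays with rapamycin plus tamoxifen and 6.56 and 6.14 with tamoxifen, against 7.04, 7.91 and 7.37 with rapamycin and 7.38 and 6.83 with vehicle. The second combined array stood above the second vehicle array, so arrays with and without tamoxifen overlapped. The averaged difference was -0.72 ± 0.21 (95% interval -1.20 to -0.23; limma adjusted p = 0.0959). The whole separation of 4 arrays below the other 5, seen for Hrh2, Chrm3 and Sstr2, was found in 4.32% of all genes.

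**Figure D1:**
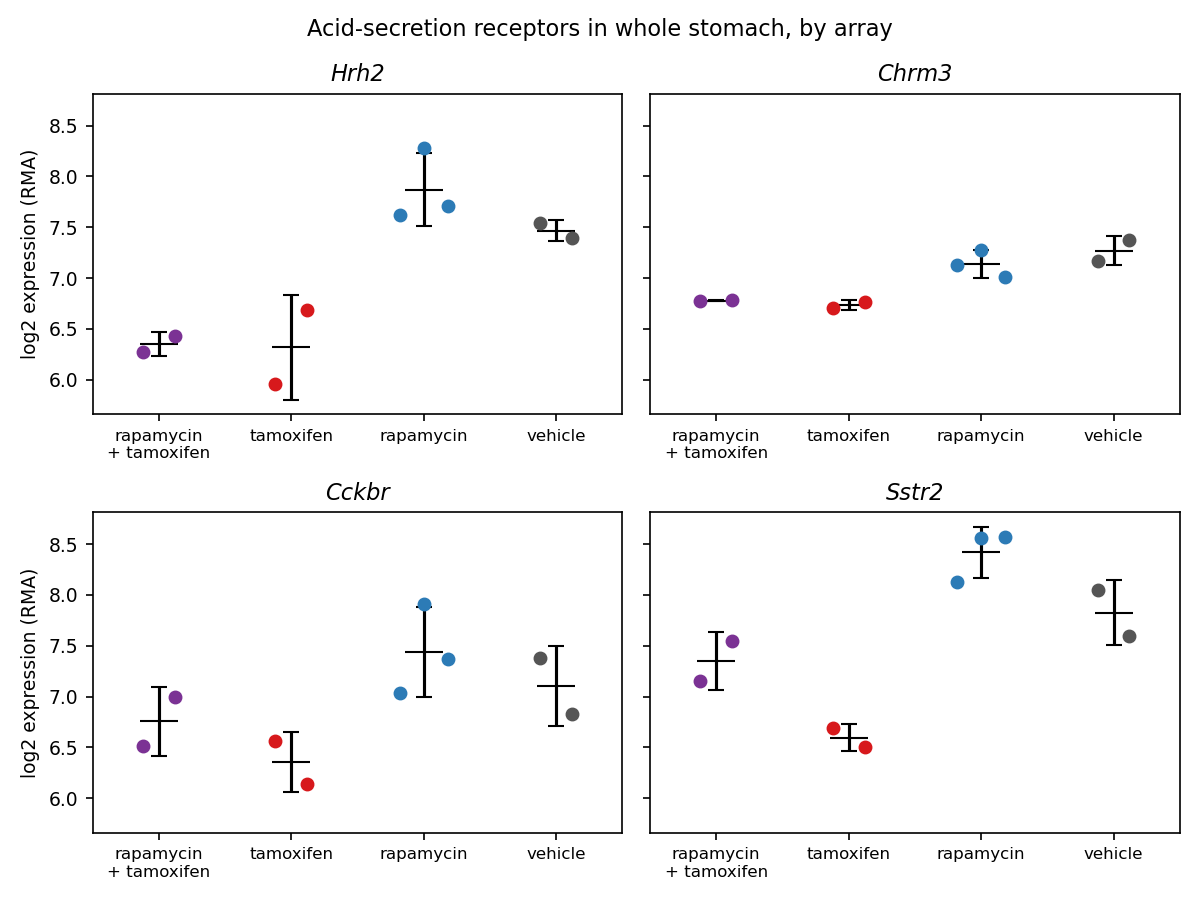
Log2 expression of Hrh2, Chrm3, Cckbr and Sstr2 (vertical axis) in each whole-stomach array, with groups from left to right given rapamycin plus tamoxifen (n = 2), tamoxifen (n = 2), rapamycin (n = 3) and vehicle (n = 2). Points are arrays, horizontal lines group means and bars ± SD. For Hrh2, Chrm3 and Sstr2 every array with tamoxifen lies below every array without it, and for Cckbr the groups overlap.

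The averaged comparison is the mean of 2 comparisons that share no array, tamoxifen against vehicle and rapamycin plus tamoxifen against rapamycin, and each was also taken by itself. In tamoxifen against vehicle all 4 receptors had differences below 0, as did 11879 of all 22180 genes. Sstr2 alone of the receptors passed the test, against 0.784% of all genes called lower and 0.933% called higher. Sstr2 averaged 6.60 ± 0.13 with tamoxifen and 7.83 ± 0.32 with vehicle, a difference of -1.23 ± 0.23 (limma adjusted p = 0.0353). That call was kept in 1 of 9 fits that left out 1 array, the one without the first rapamycin array (adjusted p = 0.0450), and in the others the adjusted p lay between 0.0526 and 0.163. With the squamous covariate the adjusted p was 0.0848 and the difference -1.20, and with only these 2 groups fitted the adjusted p was 0.290. Hrh2 averaged 6.32 ± 0.51 with tamoxifen and 7.47 ± 0.10 with vehicle, and its difference of -1.15 ± 0.28 did not pass (adjusted p = 0.0912). The differences of Chrm3 (-0.53 ± 0.15, adjusted p = 0.135) and Cckbr (-0.75 ± 0.31, adjusted p = 0.417) did not pass either.

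On a background of rapamycin, Hrh2 and Sstr2 fell when tamoxifen was added. The 2 calls stand against 1.32% of all genes called lower and 1.13% called higher. Hrh2 averaged 6.35 ± 0.12 with rapamycin plus tamoxifen and 7.87 ± 0.36 with rapamycin, which is 2.86-fold lower (-1.52 ± 0.25, limma adjusted p = 0.0183). Sstr2 averaged 7.35 ± 0.28 with rapamycin plus tamoxifen and 8.42 ± 0.25 with rapamycin, which is 2.10-fold lower (-1.07 ± 0.21, adjusted p = 0.0332). Both calls were lost when either combined array, the second rapamycin array or the third rapamycin array was left out, with adjusted p between 0.0563 and 0.191 for Hrh2 and between 0.107 and 0.339 for Sstr2. With the squamous covariate the Sstr2 call was lost as well (adjusted p = 0.0508), with a difference of -1.06. Chrm3 averaged 6.78 ± 0.0031 with rapamycin plus tamoxifen and 7.14 ± 0.13 with rapamycin (difference -0.36 ± 0.13, adjusted p = 0.256). Cckbr averaged 6.76 ± 0.34 with rapamycin plus tamoxifen and 7.44 ± 0.44 with rapamycin (difference -0.68 ± 0.29, adjusted p = 0.331).

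Without the first tamoxifen array, tamoxifen and vehicle arrays all had low squamous levels. The differences were then -0.79 for Hrh2, -0.50 for Chrm3, -0.96 for Cckbr and -1.32 for Sstr2, and none was called (limma adjusted p from 0.0802 to 0.366). This leaves 1 tamoxifen array, assumed to vary like the arrays of the other groups. Without the third rapamycin array, combined and rapamycin arrays all had high squamous levels. The differences were then -1.60 for Hrh2, -0.42 for Chrm3, -0.72 for Cckbr and -0.99 for Sstr2, and again none was called (adjusted p from 0.0563 to 0.477). The part of squamous content in the receptor values was not tested.

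Whether rapamycin altered the response to tamoxifen was asked through the interaction of the drugs. Its estimates were -0.37 for Hrh2 (95% interval -1.21 to 0.48), 0.17 for Chrm3 (-0.27 to 0.62), 0.07 for Cckbr (-0.89 to 1.03) and 0.16 for Sstr2 (-0.54 to 0.86). None of the 4 passed, with limma adjusted p of 0.9999 for each, and 0.0% of all genes were called. An unadjusted p under 0.05 was found for 0 of the 4 and for 627 of all 22180 genes. With this number of arrays all 4 intervals leave room for a sizeable difference in response.

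Rapamycin against vehicle gave no call among the receptors, against 0.0496% of all genes called. Sstr2 had the smallest p of the 4: it was 0.59 ± 0.21 higher with rapamycin (95% interval 0.12 to 1.06; unadjusted p = 0.0188, limma adjusted p = 0.494). Hrh2 was 0.40 ± 0.25 higher on average (adjusted p = 0.625). Chrm3 differed by -0.13 ± 0.13 and Cckbr by 0.33 ± 0.29. Their adjusted p were 0.734 and 0.702.

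The combined treatment against vehicle also gave no call among the 4, against 1.15% of all genes. Hrh2 differed by -1.12 ± 0.28 (limma adjusted p = 0.122) and Chrm3 by -0.49 ± 0.15 (adjusted p = 0.185). These were the 2 receptors with an unadjusted p under 0.05, which 3044 of all 22180 genes had. The differences were -0.35 ± 0.31 for Cckbr and -0.48 ± 0.23 for Sstr2. When only these 2 groups were fitted, Hrh2 passed with a limma adjusted p of 0.0345. Squamous levels were high in both combined arrays and low in both vehicle arrays. Squamous content and treatment can therefore not be told apart in this comparison.

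Set against tamoxifen alone, the combined treatment differed by 0.03 for Hrh2 (95% interval -0.59 to 0.66) and by 0.04 for Chrm3 (-0.29 to 0.37). Cckbr was 0.40 higher (-0.31 to 1.11). Sstr2 was 0.75 ± 0.23 higher (unadjusted p = 0.00911, limma adjusted p = 0.814). No receptor was called and 0.0% of all genes were, although 1257 genes had an unadjusted p under 0.05. This comparison shares its tamoxifen arrays with tamoxifen against vehicle.

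By group mean, Sstr2 stood highest with rapamycin (8.42), then with vehicle (7.83), with rapamycin plus tamoxifen (7.35) and with tamoxifen (6.60), and none of these neighbours differed by the test over all genes. Cckbr followed the same order of groups, at 7.44 with rapamycin, 7.10 with vehicle, 6.76 with rapamycin plus tamoxifen and 6.35 with tamoxifen. Hrh2 differed in that its combined and tamoxifen means lay close together (6.35 and 6.32) below vehicle (7.47) and rapamycin (7.87). For Chrm3 vehicle (7.27) lay above rapamycin (7.14), and the combined mean (6.78) and the tamoxifen mean (6.74) were below both. For these 3 receptors too, no neighbours in the order of groups differed by the test over all genes. In whole stomach, fewer cells of a type and less transcript per cell cannot be told apart.

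**Figure D2:**
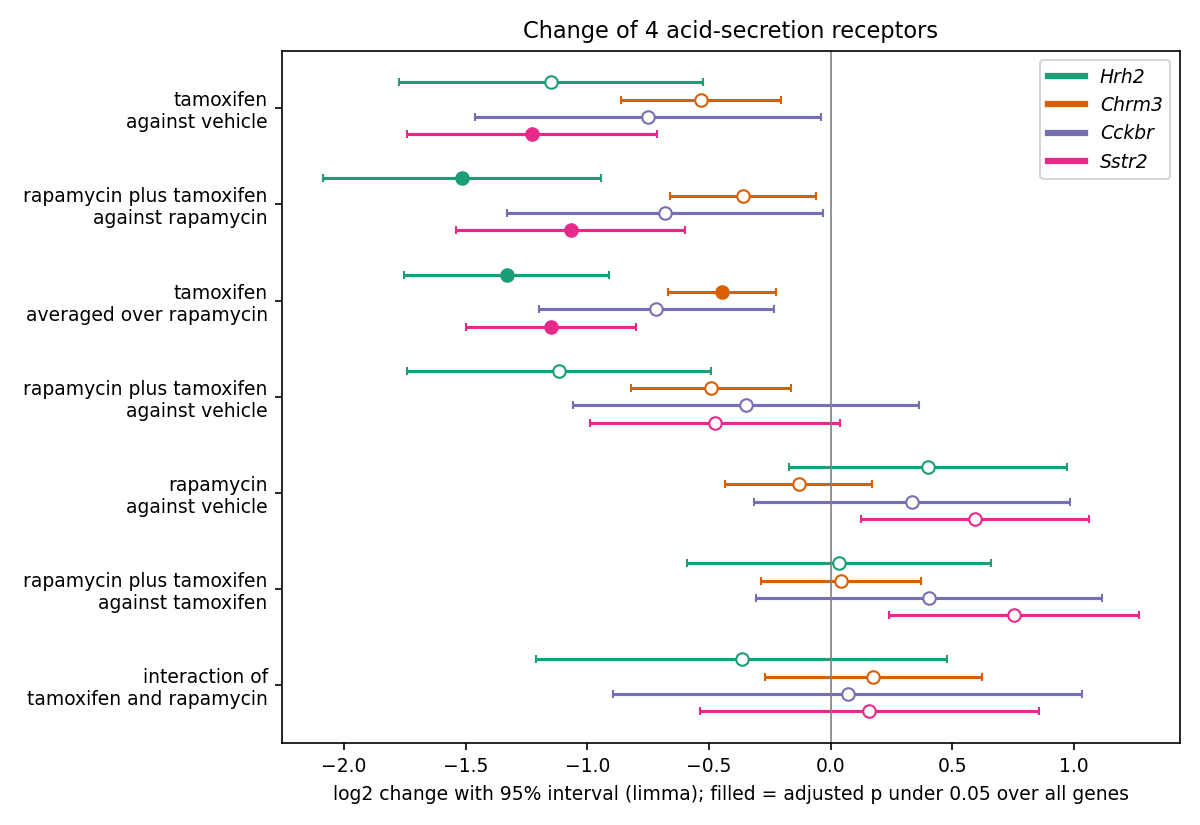
Log2 differences (horizontal axis) of the 4 receptors in 7 comparisons, with 95% intervals from limma. Filled points passed an adjusted p of 0.05 over all genes: Sstr2 in tamoxifen against vehicle, Hrh2 and Sstr2 in rapamycin plus tamoxifen against rapamycin, and Hrh2, Chrm3 and Sstr2 averaged over rapamycin. All 4 interaction intervals cross 0.

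The separated cells show in which of these 2 fractions each receptor transcript was richer. Hrh2 read 6.80 in isolated parietal cells and 3.74 in the remaining cells, a difference of 3.06 that 99.6% of genes did not exceed. Chrm3 read 5.20 in parietal cells and 3.78 in the remaining cells, a difference of 1.42 that 97.2% of genes did not exceed. Sstr2 read 5.98 in parietal cells and 5.39 in the remaining cells, a difference of 0.59 that 84.9% of genes did not exceed. Cckbr read 4.0 in parietal cells and 3.69 in the remaining cells, a difference of 0.31 that 70.8% of genes did not exceed. In the remaining cells Hrh2, Chrm3 and Cckbr all read close to the median of that array (3.68). In parietal cells Cckbr was also not far above the array median (3.67). No detection limit is given, so low levels in either fraction cannot be told from background. So 2 of the 4 receptors were at least 2-fold higher in parietal cells, against 6.32% of all genes, and 0 were at least 2-fold lower, against 6.46%. With 1 array per fraction there is no test. The parietal fraction was enriched for markers of its label: 11 of 12 parietal markers were at least 2-fold higher in it, with a median difference of 3.82. In the parietal fraction 9 of 10 endocrine markers, 7 of 8 mast cell markers, 4 of 6 chief cell markers and 4 of 4 pit mucous cell markers were at least 2-fold lower. Pit mucous cell markers still averaged 10.64 in parietal cells, against 12.6 in the remaining cells. In the remaining cells the proton pump genes Atp4a and Atp4b still read 8.03 and 8.74. The purity of the fractions was not tested. Smooth muscle markers averaged 3.97 in parietal cells and 3.80 in the remaining cells, and enteric neuron markers 3.44 and 3.38. These means lay near the array medians in both fractions. The fractions therefore say little about receptor transcript in muscle or nerve.

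Of 12 ligand genes 5 were at least 2-fold lower in parietal cells, against 6.46% of all genes, and 0 were at least 2-fold higher. The other 7 differed by less than 2-fold. The gastrin gene Gast read 5.15 in parietal cells and 11.62 in the remaining cells. Sst, the gene of somatostatin, read 3.98 in parietal cells and 8.93 in the remaining cells. Hdc, which encodes the enzyme that makes histamine, read 3.02 in parietal cells and 6.27 in the remaining cells. Of 17 related receptors, Adcyap1r1, the PACAP receptor, and Ptger3, a prostaglandin E receptor, were at least 2-fold higher in parietal cells, with differences of 1.78 and 1.44. Cckar, the cholecystokinin A receptor, and Chrm1, the M1 receptor, were at least 2-fold lower, with differences of -1.60 and -1.49. Chrm1 has 2 probe sets, and their mean gave -0.78, which is under 2-fold.

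**Figure D3:**
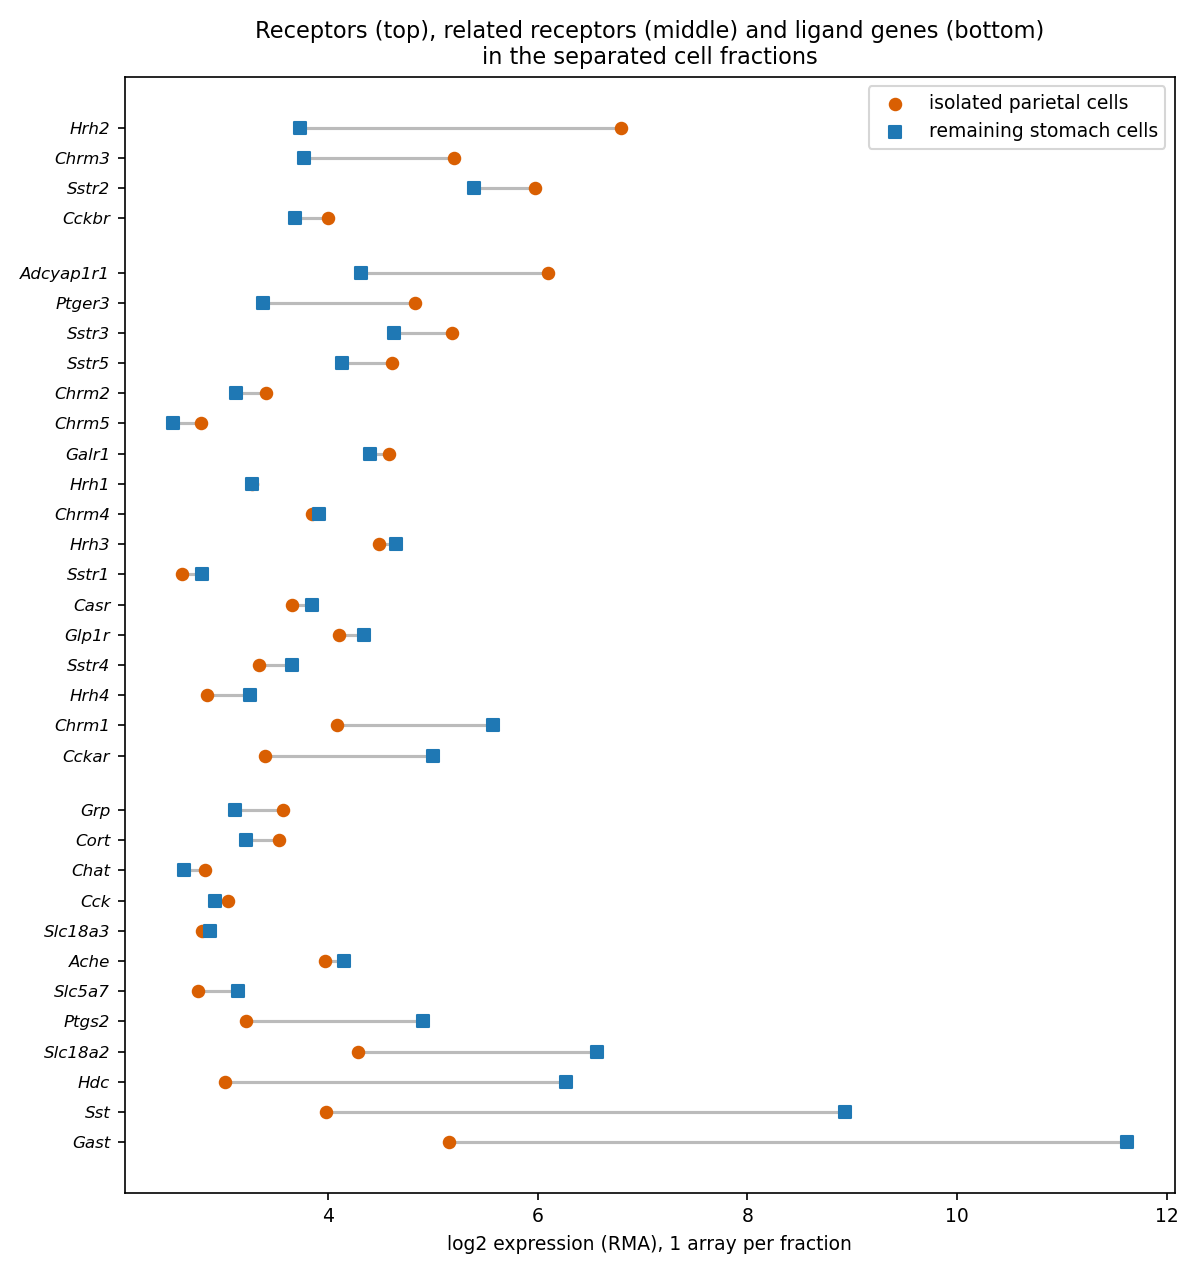
Log2 expression (horizontal axis, 1 array per fraction) in isolated parietal cells (circles) and remaining stomach cells (squares) of the 4 receptors, 17 related receptors and 12 ligand genes, each pair joined by a line and to be read within its row. Hrh2 and Chrm3 lie further right in parietal cells, whereas Gast, Sst and Hdc lie further right in the remaining cells.

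The related receptors, a list made for this pathway, mostly did not pass in whole stomach. With tamoxifen averaged over rapamycin 3 of 17 fell and 0 rose, with a median of -0.11 against -0.02 over all genes. Over all genes 2.61% fell and 3.24% rose. Adcyap1r1, whose ligand PACAP stimulates enterochromaffin-like cells in rodents, changed most of them. It read 5.72 and 5.84 in the arrays with rapamycin plus tamoxifen and 6.40 and 6.20 with tamoxifen, against 7.75, 8.25 and 7.98 with rapamycin and 7.99 and 7.95 with vehicle. The 4 arrays with tamoxifen were more than 1 unit below the others, and the averaged difference was -1.94 ± 0.12 (limma adjusted p = 1.57e-04). Adcyap1r1 was also called in tamoxifen against vehicle (-1.67, adjusted p = 0.0065) and in rapamycin plus tamoxifen against rapamycin (-2.21, adjusted p = 9.53e-04). Ptger3, whose Gi signal restrains acid secretion, differed by -1.27 ± 0.25 (adjusted p = 0.0202) and was called in 5 of 9 fits that left out 1 array. Cckar differed by -1.08 ± 0.19 (adjusted p = 0.0123) and was called in 8 of 9. These last receptors were not called in either separate comparison.

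Of the 12 measured genes for the ligands and their synthesis, 1 fell and 0 rose, with a median of -0.13. The shares over all genes were 2.61% and 3.24%. Sst read 10.93 and 11.39 in the arrays with rapamycin plus tamoxifen and 11.02 and 10.46 with tamoxifen, against 12.11, 12.25 and 12.17 with rapamycin and 12.19 and 11.08 with vehicle. The second vehicle array lay among the arrays with tamoxifen, and the averaged difference of -0.95 ± 0.23 (limma adjusted p = 0.0457) was called in 2 of 9 fits that left out 1 array. Hdc differed by -0.13 ± 0.21 (adjusted p = 0.840). Gast read 9.73 and 9.08 in the arrays with rapamycin plus tamoxifen and 6.48 and 6.00 with tamoxifen, against 8.30, 6.28 and 6.71 with rapamycin and 6.46 and 6.42 with vehicle. It was high in both combined arrays and in the first rapamycin array. Gast rose in the combined treatment against vehicle (2.96 ± 0.55, limma adjusted p = 0.0467), a call kept in 3 of 9 fits that left out 1 array, and against rapamycin it differed by 2.31 ± 0.50 (adjusted p = 0.0528). Between the combined and vehicle arrays squamous levels differed as well.

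Of 23 measured genes for the signalling steps below the receptors, 1 rose and 2 fell with tamoxifen averaged over rapamycin, with a median of -0.03. Over all genes 3.24% rose and 2.61% fell. Itpr2, an inositol trisphosphate receptor that releases calcium, fell, with a difference of -1.04 ± 0.20 (limma adjusted p = 0.0167). It was also the signalling gene at least 2-fold higher in parietal cells, at 8.61 against 5.86 in the remaining cells. Pde3b, a phosphodiesterase that degrades cAMP, differed by -0.55 (adjusted p = 0.0405), and Gnai1, an inhibitory G protein subunit, by 0.49 (adjusted p = 0.0346). Leaving out 1 array kept the call in 6 of 9 fits for Itpr2, in 2 of 9 for Pde3b and in 1 of 9 for Gnai1.

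Of 16 genes that carry out secretion 9 fell and 0 rose in the same comparison, against 2.61% and 3.24% of all genes. Their median was -0.68. The largest differences of these 16 genes were those of Slc26a7, a chloride and bicarbonate exchanger (-2.85 ± 0.15, limma adjusted p = 6.30e-05), and Kcnj16, a potassium channel (-2.34 ± 0.12, adjusted p = 4.98e-05). Slc26a9, a chloride channel, and Slc4a2, the basolateral anion exchanger, followed with -1.20 and -1.17. These 4 were called in 9 of 9 fits that left out 1 array. In tamoxifen against vehicle 2 of the 16 were called lower, against 0.784% of all genes. In rapamycin plus tamoxifen against rapamycin 6 were, against 1.32%.

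Cell type markers were read on the same arrays. With tamoxifen averaged over rapamycin 2.61% of all genes fell and 3.24% rose, whereas 9 of 12 parietal markers fell, with a median of -0.88. Of these 12, Atp4a, Atp4b, Kcnq1, Kcne2, Slc26a7, Slc26a9, Slc4a2 and Clic6 are also among the genes that carry out secretion. The counts for these lists are thus not separate results. Their mean level per array ran from 8.93 to 9.08 in the arrays with rapamycin plus tamoxifen and from 8.84 to 9.44 with tamoxifen, against 10.13 to 10.36 with rapamycin and 10.02 to 10.07 with vehicle. Of 6 chief cell markers 4 fell (median -1.10), with means from 8.90 to 9.13 in the arrays with rapamycin plus tamoxifen and 8.56 to 8.72 with tamoxifen, against 9.84 to 9.95 with rapamycin and 10.09 to 10.16 with vehicle. Of 10 endocrine markers 1 rose and 1 fell, with means of 8.52 and 8.52 in the arrays with rapamycin plus tamoxifen and 7.88 to 8.19 with tamoxifen, against 8.33 to 8.47 with rapamycin and 7.87 to 8.36 with vehicle. The endocrine marker that rose was Chgb (1.43, limma adjusted p = 8.54e-04). Chgb also rose in tamoxifen against vehicle (1.52, adjusted p = 0.0146) and in rapamycin plus tamoxifen against rapamycin (1.33, adjusted p = 0.0104). The endocrine marker that fell was Sst, already counted among the ligand genes. Of 8 enteric neuron markers and 4 pit mucous cell markers 0 were called, and 1 of 10 smooth muscle markers and 1 of 8 mast cell markers fell. Of the mast cell markers 2 fell in tamoxifen against vehicle (median -1.14), against 0.784% of all genes called lower. All 8 were below 0 there, as were 11879 of all 22180 genes. In rapamycin against vehicle 3 fell (median -1.33), against 0.0496% of all genes called in either direction. In rapamycin plus tamoxifen against rapamycin 1.32% of all genes were called lower. Of the mast cell markers 1 fell there, Kit (-1.755), the only 1 of the 8 below 0 (median 0.33). Kit was also the mast cell marker that fell with tamoxifen averaged over rapamycin. It read 8.09 in parietal cells and 7.71 in the remaining cells. Of the smooth muscle markers 0 were called in tamoxifen against vehicle (median 0.09), and 2 fell in rapamycin plus tamoxifen against rapamycin (median -0.42). In the latter comparison all 10 were below 0, as were 11630 of all 22180 genes. For the squamous list 1 of 10 rose, with a median of 1.59. The gene that rose was Sprr1a (1.03, limma adjusted p = 0.0213). It read 11.12 in parietal cells and 10.52 in the remaining cells, where the squamous list averaged 4.11 and 4.50. Its rise is therefore not a measure of squamous content alone. The part of these cell types in the receptor values was not tested. No marker can read 0 on this scale.

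**Figure D4:**
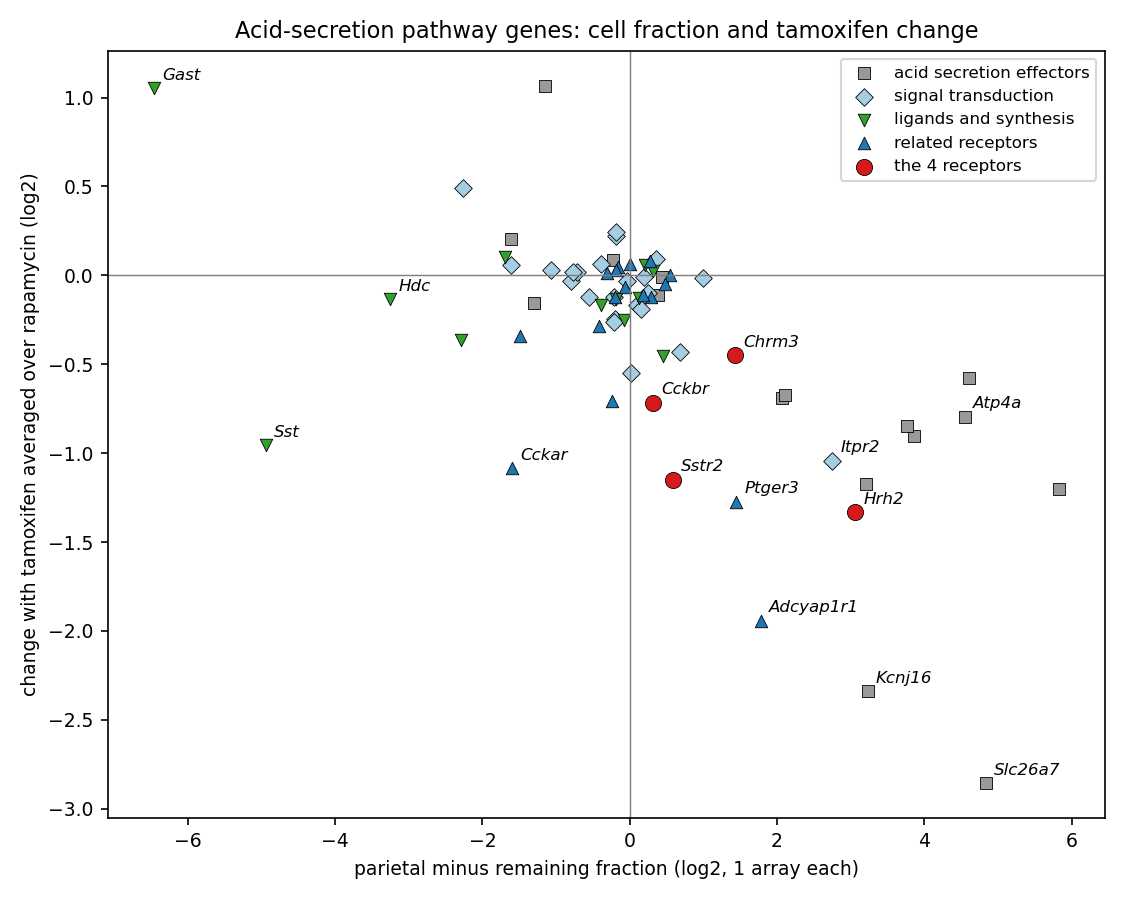
Each point is a gene of the acid secretion pathway, with its difference between isolated parietal cells and remaining cells (horizontal axis, log2, 1 array each) and its averaged difference with tamoxifen (vertical axis, log2). Hrh2 and Chrm3 lie to the right of 0 with most effectors, Sstr2 (0.59) and Cckbr (0.31) lie closer to 0, and all 4 receptors lie below 0 on the vertical axis.

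Over the 9 whole-stomach arrays the receptors also varied together, described here by Pearson's r with no test, since the arrays share their treatments. The r was 0.92 between Sstr2 and Cckbr, 0.86 between Sstr2 and Hrh2, 0.86 between Chrm3 and Hrh2, 0.80 between Cckbr and Hrh2, 0.70 between Sstr2 and Chrm3 and 0.65 between Cckbr and Chrm3. The genes most like each receptor were taken from the 11090 genes whose mean level lay above the median. Those nearest to Hrh2 were Dhrs11 (r = 0.99), Ppp2r1b and Fzd4, and nearest to Chrm3 were Slc17a5 (0.98), Fyco1 and Tbc1d4. Those nearest to Cckbr were Kcnip3 (0.99), Rab6b and Gm4285, and nearest to Sstr2 were Pdk2 (0.98), St6galnac2 and Bmyc.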

How the data were processed

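Biotin-labelled, amplified total RNA was hybridised to 11 expression arrays. The authors deposited log2 values per probe set, made with RMA in Partek per the submitters' processing notes. The sources used here name no versions. From these values 1 probe set per gene was kept, the brightest by mean in the 9 arrays of whole stomach, among 23521 of 41345 probe sets that name 1 gene. No filter was set on dim genes. RefSeq IDs matched 23328 probe sets.

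The model, run in limma 3.58.1 (R 4.3.3), had a mean per group (lmFit and eBayes, 5 residual degrees of freedom, prior 3.86), with Benjamini-Hochberg adjustment over 22180 genes. The scripts were tested on simulated data. Fractions were compared as differences, with no test. Precision is limited by how few arrays there are, and p-values measure the spread between arrays labelled biological replicates. Named were the 4 receptors, up to 4 called genes of largest change per list, and genes of nearest r. Likeness used genes above the median of mean levels. Of 132 list genes 127 were measured. The receptors and lists were chosen with earlier results of these data known. Alternatives were other normalizations, a filter, mean probe sets, other fits, a squamous covariate, a replicate block and each array left out.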

Additional observations from a re-analysis of the deposited data

How the results depend on the processing

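With tamoxifen averaged over rapamycin, Hrh2 and Sstr2 were called in 9 of 9 fits that left out 1 array and in 7 of 7 other settings. Cckbr was called in none, and the number of receptors called ran from 2 to 3 with 1 array left out. With the squamous covariate it was 2, Chrm3 being lost (adjusted p = 0.0819). In tamoxifen against vehicle the number was 0 with only the groups compared, 0 with the squamous covariate, 0 with the replicate block and 0 to 1 when an array was omitted. In rapamycin plus tamoxifen against rapamycin it was 1 with the squamous covariate, 1 with the replicate block (Sstr2 lost, adjusted p = 0.138) and 0 to 2 when an array was omitted. In rapamycin plus tamoxifen against vehicle it was 1 with only the groups compared. Past 2 log2 units, 1 receptor was higher in parietal cells. No called difference changed sign.

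Counts over all genes moved more. Tamoxifen against vehicle had 381 genes called, 0 with only the groups compared, 184 with the squamous covariate, 170 with the replicate block and 95 to 213 with 1 array left out. Rapamycin plus tamoxifen against rapamycin had 543, with 1102 in only the groups compared, 260 with the block and 39 to 643 with 1 array left out. Rapamycin plus tamoxifen against vehicle had 254, with 10 under the covariate, 149 under the block and 17 to 376 with 1 array left out. Rapamycin against vehicle had 11, with 7 in only the groups compared, 4 under the covariate and 3 to 20 with 1 array left out. The averaged comparison had 1298, and 613 to 1452 with 1 array left out. The interaction had 0, and 1 under the replicate block. The cause of these shifts was not tested.

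Same-numbered arrays deviated from their group means together for vehicle and tamoxifen (r = 0.56), but not for every pair of groups (r = -0.11 between rapamycin plus tamoxifen and tamoxifen). With 2 arrays in a group the deviations are mirror images, so other-numbered vehicle and tamoxifen arrays gave r = -0.56. Each such r is thus 1 number whose sign depends on the numbering. Whether same-numbered vehicle and tamoxifen arrays share more than a number was not tested. The crossed pairing of the rapamycin plus tamoxifen group with the tamoxifen group, added after the data were seen, called 0 receptors and 0 genes, as did the main fit. Only the squamous covariate, the block, the groups fitted and the array left out altered a call of a receptor in the settings tried. With 2 or 3 arrays a group, small differences cannot be resolved, and no measure of signal over background was used here.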
